A study of Arabidopsis thaliana with 4 samples.

Results

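The 57 nuclear genes described here had at least a 2-fold higher signal in albino than in control Arabidopsis thaliana plants within both replicate numbers of a study of 4 arrays. They were chosen from the measured values: a probe set annotated to exactly 1 nuclear gene was taken where the log2 signal of albino minus control was at least 1 in replicate 1 and at least 1 in replicate 2. Of 13421 probe sets with 1 nuclear gene, 63 (0.469%) met that rule. EXPA8, GI, RR16, JAL23, THI2.1 and LHCB4.2 met it too and were left out by name, with differences of 1.58 to 3.48 in replicate 1 and 1.12 to 2.38 in replicate 2. The remaining 57 probe sets belong to 57 different genes, of 13265 nuclear genes measured in this way. Because the differences chose the genes, they are given as a description, without a test, and their size and direction support nothing further.

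The albino plants (2 arrays) and the control plants of normal phenotype (2 arrays) came from the line DS 13-2198-1. Both kinds segregated from a parental line that carried the mutation in heterozygous form, shared plates of a diluted mineral medium (MS) supplied with 2% sucrose, and were 3 weeks old, grown at 23 °C with 16 h of light and 8 h of dark. No disrupted gene is named, so the titles could not be checked on a targeted transcript, and the description of each of the 4 samples reads wild type, in conflict with the titles of the albino ones. The line is a single mutant line, normal segregants may include heterozygous plants, and the labels do not say how many plants made up a sample or whether the replicates were separate pools, so a p-value here covers the variation among 4 arrays and possibly only its technical part. RNA was taken from the plants without separating cell types, so fewer cells of a type and less RNA per cell cannot be told apart.

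Albino plants lack the green pigment of the chloroplast and cannot live from photosynthesis, and they survive on the sugar in the medium. Plastids whose development is blocked are known to send signals that alter transcription in the nucleus, and growth hormones, light and sugar act on many of the same nuclear genes. Auxin acts through nuclear repressors that are removed when the hormone is present, and cell growth depends on enzymes that loosen or rebuild the cell wall.

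On the arrays as a whole, no probe set of 22746 passed an adjusted p of 0.05 in limma (0 higher, which is 0%, and 0 lower), and the smallest adjusted p was 0.59. An unadjusted p under 0.05 was reached by 609 probe sets with a higher and 701 with a lower signal in albino plants. Array medians were 5.85 and 6.12 in albino plants, against 5.84 and 6.12 in control plants, so the arrays resembled each other more by replicate number than by group in overall brightness. Of 27 markers of other organs and cell types, 7 were measured in 4 lists, and none was among the 57 genes. Summed linear signals of the 3 measured root markers of 4 were 514 and 1207 in albino plants, against 2364 and 1889 in controls. The lower sums came mainly through PYK10, a beta-glucosidase of root cells, which differed by -2.29 and -0.67 in replicates 1 and 2. The dimmer EXPA7 was mixed, at -0.70 and 0.14, and EXPA18 was higher in both, at 0.18 and 0.27. The part of PYK10 in the differences below was not tested. RCA, which encodes the activase of the carbon-fixing enzyme, was the only 1 measured of 5 listed markers of leaf mesophyll. It was higher by 0.26 and 0.16 in the 2 replicates. FAMA of the guard cell and stomatal lineage was lower in both, at -0.07 and -0.37. SPCH of the same list (-0.36 and 0.05) and CLV3 of the shoot meristem (-0.66 and 0.26) were mixed.

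Among the 57 genes the difference of albino minus control in replicate 1 had a median of 1.87 on the log2 scale (3.67-fold) and ran between 1.02 and 4.24. In replicate 2 the median was 1.32 (2.49-fold) and the range 1.02 to 2.56. Over both replicates the mean difference had a median of 1.59 (3.01-fold), with standard errors (SE) of 0.25 to 0.75. All probe sets together centred near 0, at a median of 0.01 in replicate 1 and 0.03 in replicate 2, with a wider spread in replicate 1 (SD 0.598) than in replicate 2 (SD 0.364). A difference of 1 was therefore a smaller distance in units of that spread in replicate 1 than in replicate 2.

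**Figure D1:**
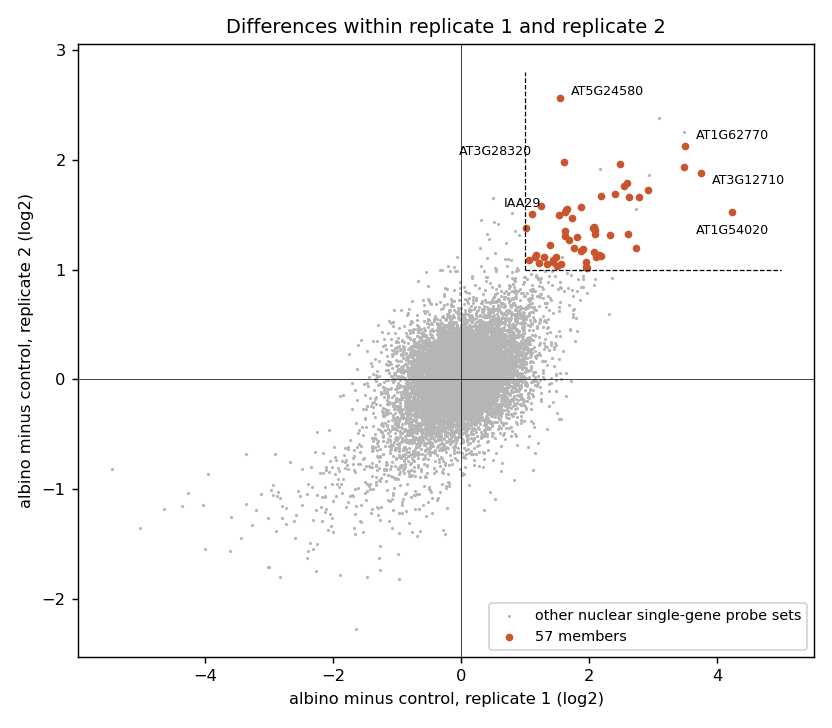
Each point is 1 probe set with 1 nuclear gene: the horizontal axis gives albino minus control in replicate 1 and the vertical axis the same in replicate 2, both in log2 units. The 57 genes are orange and lie in the upper right corner beyond the dashed lines at 1; the 6 genes left out by name are the grey points in that corner, and the point for AT1G62770 is the only orange one with both differences above 2.

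The size of the difference agreed only loosely between the replicates. Pearson's r between the 2 differences was 0.452 and Spearman's rho was 0.452 over the 57 genes, a description of a set cut off at 1 on both sides whose values all come from the same 4 arrays. The replicate 1 difference was the larger in 51 of the 57 genes. The same held in 86 of the 96 nuclear genes that were at least 2-fold lower in both replicates (0.715% of nuclear single-gene probe sets), and in 66.7% of all nuclear single-gene probe sets. A difference of 2 or more was reached by 23 genes in replicate 1 and by 2 genes in replicate 2, and by AT1G62770 alone in both. In 19 genes both differences were at least 1.5.

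Only 7 of the 57 genes (12.3%) carry a gene name in the annotation used here, against 11.1% of all nuclear single-gene probe sets, and the other 50 are known here by their locus alone. The named genes fell in different families: an auxin-response repressor, a cell wall glucanase, 2 hydrolases of peptides, a beta-glucosidase, a protein of membrane traffic and a protein related to those of maturing seeds. Families were compared by gene symbol for 6 of the named genes, and the 50 genes known by locus alone were not assigned to a family.

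IAA29 encodes an Aux/IAA protein, one of the short-lived nuclear repressors that auxin removes to release its target genes and that are often transcribed in response to auxin. Its log2 signal was 7.25 and 7.05 in albino plants, against 5.62 and 5.52 in control plants. Both albino arrays were above both control arrays, as the rule nearly forces. The differences of 1.63 and 1.52 were nearly equal, with a mean of 1.57 ± 0.25 (SE, n = 2 per group). The 6 measured relatives with an IAA name differed by a median of 0.14, between -0.18 and 0.79, and none was 2-fold higher in both replicates. The highest of them, IAA20, differed by 1.45 in replicate 1 and 0.12 in replicate 2. These relatives were mostly dim: their median control mean was 3.85, and 1 lay above the array middle on both control arrays. Of 18 genes on a list of auxin response and transport, 4 were measured: IAA29, and 3 GH3 genes for enzymes that join auxin to amino acids. GH3.3 differed by -0.75 and GH3.5 by -0.35 as means of both replicates, and both were lower in each replicate. GH3.1, dim on all 4 arrays, was mixed at -0.27 and 0.14, with a mean of -0.07. The list's median was -0.21, and of its 4 measured genes IAA29 alone was higher in both replicates.

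GH9B13 belongs to glycosyl hydrolase family 9, the endoglucanases that cut glucan chains of the cell wall. Its signal was 8.89 and 9.17 in albino plants, against 7.77 and 7.67 in control plants. It was one of the few genes whose larger difference fell in replicate 2, at 1.12 and 1.5, and its mean difference was 1.31 ± 0.26 (SE, n = 2 per group). Among 14 measured GH9 relatives the median difference was 0.05, with a range of -0.44 to 0.84. Most were dim, with a median control mean of 3.70, and 2 lay above the array middle on both control arrays. GH9C2 came closest, at 1.15 in replicate 1 and 0.53 in replicate 2.

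ATSBT5.2 encodes a subtilase, a serine protease of a family that is mostly secreted into the cell wall space. Its log2 signals were 7.17 and 7.81 in albino plants, against 5.63 and 6.31 in control plants. The 8 measured SBT relatives had a median difference of -0.15 and ran between -1.95 and 0.77. SBT3.12 was higher by 0.81 and 0.73, while SBT3.5 was lower, at -2.94 and -0.97, so the family's members lay on both sides of 0.

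The gene scpl31 encodes a serine carboxypeptidase-like protein, from a family of secreted peptidases and of acyltransferases derived from them. It gave 6.68 and 7.11 in albino plants, against 4.06 and 5.79 in control plants. Its 2 differences, 2.61 and 1.32, were far apart, and their mean was 1.97 ± 0.58 (SE, n = 2 per group). That SE reflects the spread within each group, where the control arrays lay 1.73 apart. It does not measure how well the 2 differences agreed. All 28 measured SCPL relatives differed by less than 0.5 in the mean, between -0.48 and 0.39, with a median of 0.03.

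BGLU33 is a member of the family 1 beta-glucosidases, which release glucose from small glucosides such as those of phenolics, hormones and defence compounds. Its signal was 7.98 and 8.16 in albino plants, against 5.9 and 7.01 in control plants. The mean difference was 1.62 ± 0.41 (SE, n = 2 per group), while the 19 measured relatives with a BGLU symbol, which leave out PYK10, had a median of -0.08 and ran between -1.65 and 0.81. BGLU45 and BGLU46 were at least 2-fold lower in both replicates: BGLU45 differed by -2.25 and -1.06, and BGLU46 by -1.80 and -1.16. BGLU33 and these relatives therefore met the same rule in opposite directions.

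PRA1.F1 encodes a prenylated Rab acceptor, a small membrane protein of the secretory pathway. It had signals of 6.5 and 6.71 in albino plants, against 4.63 and 5.55 in control plants, and its mean difference was 1.52 ± 0.37 (SE, n = 2 per group). The 8 measured PRA1 relatives differed by -0.20 to 0.15 in the mean, with a median of -0.03, the narrowest range of the 6 sets of relatives. M10, a hydrophilic protein related to the late embryogenesis abundant proteins of seeds, had signals of 6.29 and 6.23 in albino plants, against 5.0 and 5.12 in control plants. Its differences of 1.29 and 1.11 were near the threshold of 1 and nearly equal, and no relatives of M10 were compared.

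**Figure D2:**
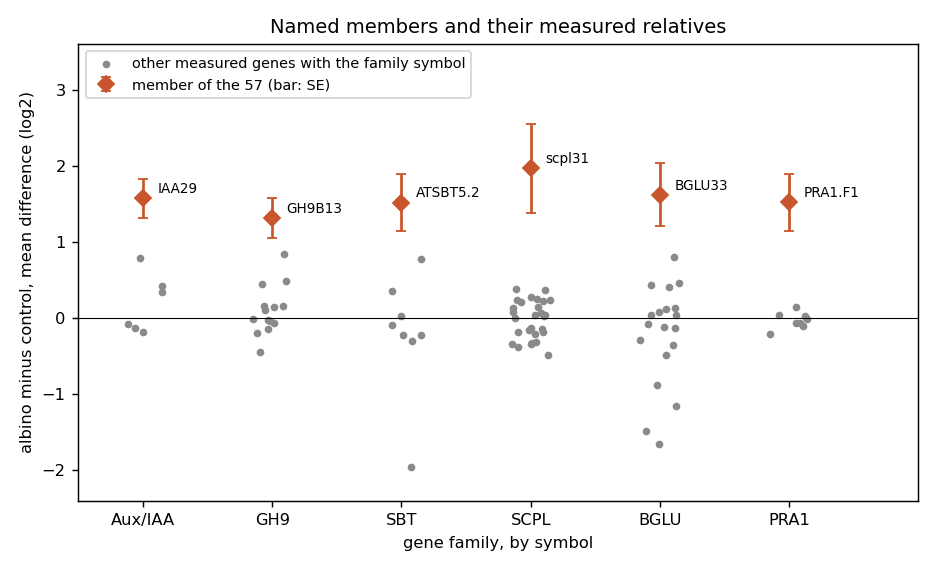
The mean difference of albino minus control in log2 units (vertical axis) is shown for each of 6 gene families (horizontal axis). The orange diamond is the gene that belongs to the 57, with its SE as a bar (n = 2 per group), and grey points are the other measured genes with that family's symbol; IAA29, GH9B13, ATSBT5.2, scpl31, BGLU33 and PRA1.F1 each lie above all of the relatives drawn, as the choice of genes favours.

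In the family comparison 0 relatives of 83 passed the adjusted p of 0.05 and 0 were at least 2-fold higher in both replicates. These relatives are those whose symbol carries the family's name, so relatives listed by locus alone or under another symbol were not counted. Above the array middle on both control arrays were 1 of 6 IAA, 2 of 14 GH9 and 2 of 8 SBT relatives. The counts were 13 of 28 for SCPL, 8 of 19 for BGLU and 7 of 8 for PRA1. A difference near 0 in a dim relative does not show that an expressed gene was unchanged. No test of the difference between a named gene and its relatives is given because the rule had selected the named gene on the same values.

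AT1G62770 was the one gene with both differences above 2, with signals of 9.58 and 9.33 in albino plants, against 6.09 and 7.21 in control plants. Its albino arrays were close together, the groups lay 2.13 apart at their nearest arrays, and the mean difference was 2.81 ± 0.42 (SE, n = 2 per group). AT4G11290 gave 6.4 and 6.66 in albino plants, against 3.92 and 4.7 in control plants, with both albino arrays over 1.5 above both control arrays. AT3G28270 had 8.07 and 7.59 in albino plants, against 4.58 and 5.65 in control plants, differences of 3.49 and 1.94, and control arrays that differed from each other by 1.07.

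AT3G12710 reached 7.93 and 8.34 in albino plants, against 4.18 and 6.46 in control plants, and its replicate 1 difference exceeded that of replicate 2 by over 1. AT1G80130 had signals of 10.15 and 9.996 in albino plants, against 7.56 and 8.21 in control plants. AT1G73480 had 8.66 and 8.63 in albino plants, against 6.11 and 6.87 in control plants. In these 3 genes the control array of replicate 2 was brighter than that of replicate 1, as in most of the set. AT5G50335 gave 8.41 and 8.06 in albino plants, against 5.49 and 6.34 in control plants, and AT5G57760 gave 7.55 and 7.24 in albino plants, against 4.77 and 5.58 in control plants, again with the dimmest signal in control replicate 1.

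AT5G48900 had signals of 9.2 and 9.42 in albino plants, against 6.8 and 7.73 in control plants. AT5G66590 had 6.74 and 7.24 in albino plants, against 4.55 and 5.57 in control plants, and AT3G23880 had 5.99 and 5.87 in albino plants, against 3.35 and 4.2 in control plants. In these 3 genes the albino and control arrays did not overlap, as the rule nearly forces throughout the set. AT3G45160 gave 8.26 and 8.42 in albino plants, against 6.38 and 6.85 in control plants. AT1G54020 had the largest difference of all in a single replicate, 4.24 and 1.52 in replicates 1 and 2, with signals of 9.04 and 8.67 in albino plants, against 4.8 and 7.14 in control plants. Its control arrays were 2.34 apart, so its mean difference of 2.88 ± 0.75 (SE, n = 2 per group) carried the largest standard error of the 57 genes.

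The 6 genes whose larger difference fell in replicate 2 were AT3G28320, AT5G24580, AT3G48550, GH9B13, AT4G30460 and AT5G22310. AT5G24580 had the highest replicate 2 difference of the 57 genes, 1.55 and 2.56 in replicates 1 and 2, with signals of 6.01 and 7.16 in albino plants, against 4.46 and 4.6 in control plants. AT3G28320 gave 7.75 and 7.56 in albino plants, against 6.15 and 5.58 in control plants. AT3G48550 gave 5.83 and 6.6 in albino plants, against 4.57 and 5.02 in control plants, and AT5G22310 gave 7.24 and 6.99 in albino plants, against 6.23 and 5.61 in control plants. In AT3G28320 and AT5G22310 the control array of replicate 2 was the dimmer one, opposite to most of the set.

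In 10 genes the 2 differences lay within 0.25 of each other. AT1G34967, which the gene records list as a pseudogene and whose probe set carries the suffix of probes that may match several transcripts, had signals of 6.39 and 6.95 in albino plants, against 4.73 and 5.4 in control plants, with differences of 1.66 and 1.55. AT1G64500 had 7.87 and 7.89 in albino plants, against 6.23 and 6.35 in control plants, the median mean difference of the set. In both genes the groups of arrays were clearly apart, as the rule favours. AT3G05640 gave 7.87 and 8.16 in albino plants, against 6.49 and 6.94 in control plants. AT1G65370 gave 9.33 and 9.42 in albino plants, against 8.16 and 8.29 in control plants, and AT3G01060 differed by 1.16 and 1.12. AT5G02180 differed by 1.21 and 1.06, the remaining ones being IAA29, ATSBT5.2, M10 and AT4G30460.

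In 11 genes the replicate 1 difference exceeded that of replicate 2 by more than 1: AT1G62770, AT3G28270, AT3G12710, AT5G50335, AT5G57760, AT1G54020, scpl31, AT2G47880, AT3G28220, AT1G13650 and AT3G08670. AT2G47880 had signals of 6.73 and 6.08 in albino plants, against 4.4 and 4.77 in control plants. AT3G28220 had 10.54 and 9.91 in albino plants, against 7.8 and 8.72 in control plants, and AT1G13650 had 5.61 and 5.91 in albino plants, against 3.45 and 4.78 in control plants. AT3G08670 differed by 2.19 and 1.13 in replicates 1 and 2. In each of these 4 genes control replicate 1 was the dimmest array.

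The genes of intermediate rank, with a smaller difference of about 1.2 to 1.5, included a further 12 without a gene name. AT1G12080 had signals of 7.86 and 6.96 in albino plants, against 6.12 and 5.49 in control plants. AT5G62280 had 7.51 and 6.9 in albino plants, against 5.43 and 5.51 in control plants, and AT1G62480 had 9.59 and 9.49 in albino plants, against 7.53 and 8.11 in control plants. Every albino array of these 3 genes was above every control array, as the rule nearly forces throughout the set. AT5G22580 gave 11.22 and 10.68 in albino plants, against 9.13 and 9.32 in control plants. AT2G41760 gave 8.59 and 8.84 in albino plants, against 6.97 and 7.48 in control plants, and AT3G13980 gave 7.33 and 7.43 in albino plants, against 5.23 and 6.12 in control plants. These 3 genes were separated in the same way. AT3G06070 had signals of 6.36 and 6.22 in albino plants, against 4.73 and 4.92 in control plants. AT1G64360 had 10.15 and 10.53 in albino plants, against 8.33 and 9.23 in control plants, and AT1G60060 had 6.11 and 6.83 in albino plants, against 4.42 and 5.56 in control plants. AT1G64360 was bright on every array, so its difference was measured well above the dim range of the array. AT5G19110 gave 6.06 and 5.92 in albino plants, against 4.3 and 4.72 in control plants. AT2G39850 gave 5.64 and 5.54 in albino plants, against 3.74 and 4.35 in control plants, and AT5G11420 gave 10.45 and 10.59 in albino plants, against 8.57 and 9.42 in control plants. The last of these was again bright on all 4 arrays.

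The remaining genes had a smaller difference between 1 and about 1.2. AT4G29700 differed by 2.11 and 1.12, and AT4G19430 by 1.48 and 1.11, in replicates 1 and 2. AT5G61660 differed by 1.44 and 1.09, and AT5G44680 by 1.96 and 1.07. AT3G07010 differed by 1.45 and 1.06 and AT3G61260 by 1.57 and 1.05. In all 6 the replicate 1 difference was the larger.

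The threshold of 1 cut through a dense stretch of values. Just inside it lay AT1G21050 at 1.97 and 1.02, AT5G22310 at 1.02 and 1.38, AT1G52000 at 1.96 and 1.02, AT4G32460 at 1.5 and 1.04 and AT5G15950 at 1.34 and 1.05 in replicates 1 and 2. Just outside it were ATL8 at 1.86 and 0.99, UPB1 at 1.42 and 0.99, AT1G75180 at 1.32 and 0.98, AT3G53980 at 1.66 and 0.97, and AT1G18810 at 1.09 and 0.96. In these nearest genes replicate 2 decided the side, except in AT5G22310. Altogether 11 of the 57 genes had a smaller difference of 1 to 1.1, and 24 nuclear probe sets outside the set had one of 0.9 to 1.

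**Figure D3:**
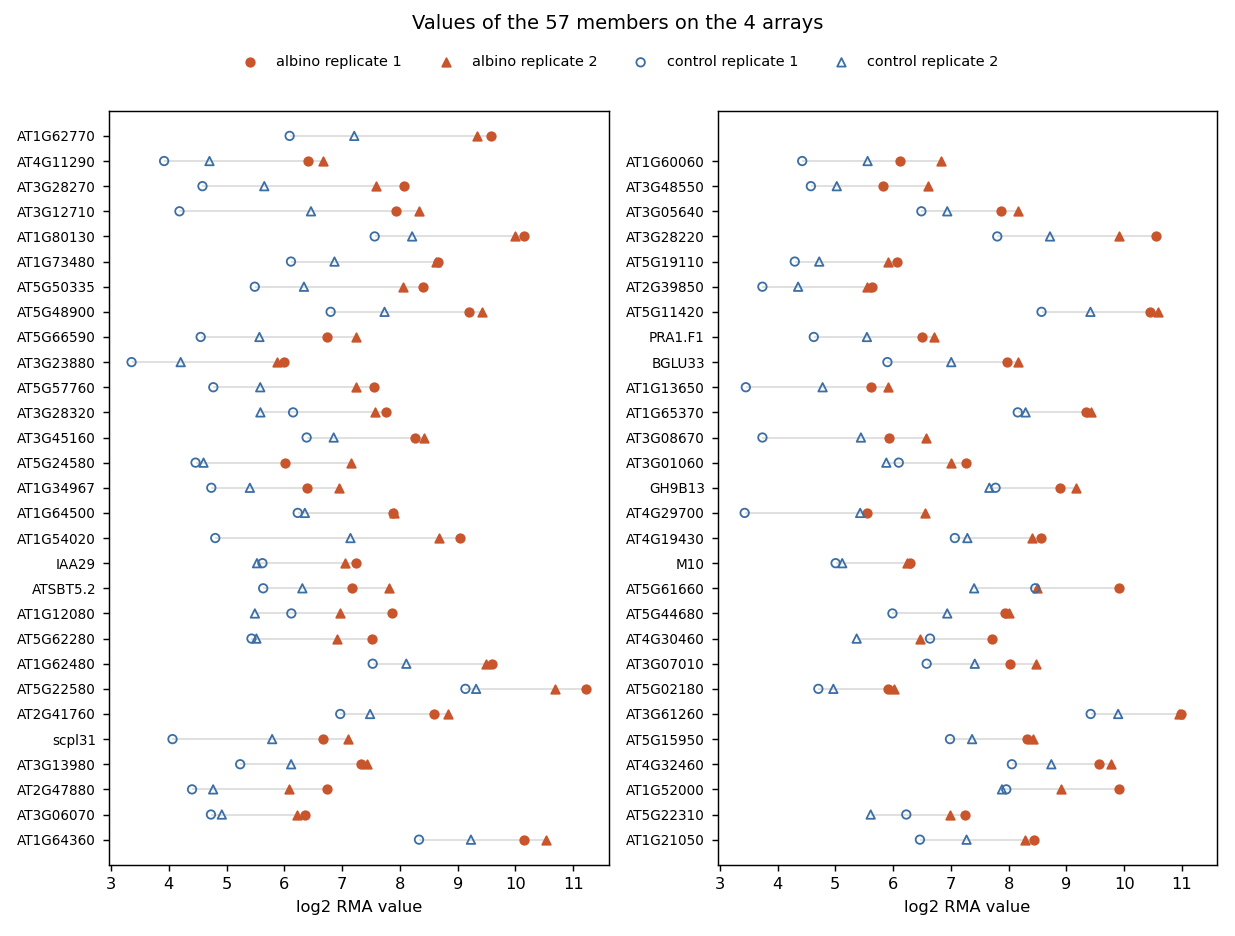
Log2 signals (horizontal axis) of the 57 genes, 1 gene per row and ordered by the smaller of its 2 differences from the top left to the bottom right; filled orange symbols are albino arrays, open blue symbols control arrays, circles replicate 1 and triangles replicate 2. In every row but that of AT4G30460 both albino symbols lie to the right of both control symbols.

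Both albino arrays were above both control arrays in 56 of the 57 genes. That pattern was found in 16.2% of all probe sets, and the rule nearly forces it here, so nothing is read from the count. The exception was AT4G30460, at 7.71 and 6.46 in albino plants, against 6.64 and 5.37 in control plants: its differences of 1.07 and 1.09 were nearly equal, but albino replicate 2 was below control replicate 1. AT5G61660 and AT4G29700 were separated by only 0.03 and 0.11. In 35 genes the dimmest albino array was over 1 above the brightest control array. The rule favours this as well and the share over all probe sets was not counted, so nothing is read from it. Signals of different probe sets do not rank transcripts, but 8 genes were above the 75th percentile of the array on all 4 arrays: AT5G22580, AT1G64360, AT3G28220, AT5G11420, AT1G65370, AT3G61260, AT4G32460 and AT1G52000. A total of 15 genes lay below the middle of the array on both control arrays and above it on both albino arrays. That count too is favoured by the rule and has no share over all probe sets beside it.

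The arrays of a group differed from each other unevenly in these genes. The 2 albino arrays lay a median of 0.26 apart and the 2 control arrays 0.68 apart, against 0.34 and 0.37 over all nuclear single-gene probe sets. The control pair was the wider in 46 of the 57 genes, against 53.3% of nuclear single-gene probe sets. Control replicate 2 was above control replicate 1 in 48 genes (84.2%), while albino replicate 2 was above albino replicate 1 in 29 (50.9%). Over all nuclear single-gene probe sets these shares were 52.1% for control and 53.3% for albino arrays. In the 96 nuclear genes that were 2-fold lower in both replicates it was the albino pair that was wider, with medians of 1.26 for albino and 0.35 for control arrays, and albino replicate 2 was above albino replicate 1 in 85 of them. The larger replicate 1 difference of the 57 genes therefore coincided with a dim signal in control replicate 1, and that of the lower genes with a dim signal in albino replicate 1. The rule used the same values, so these are descriptions.

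**Figure D4:**
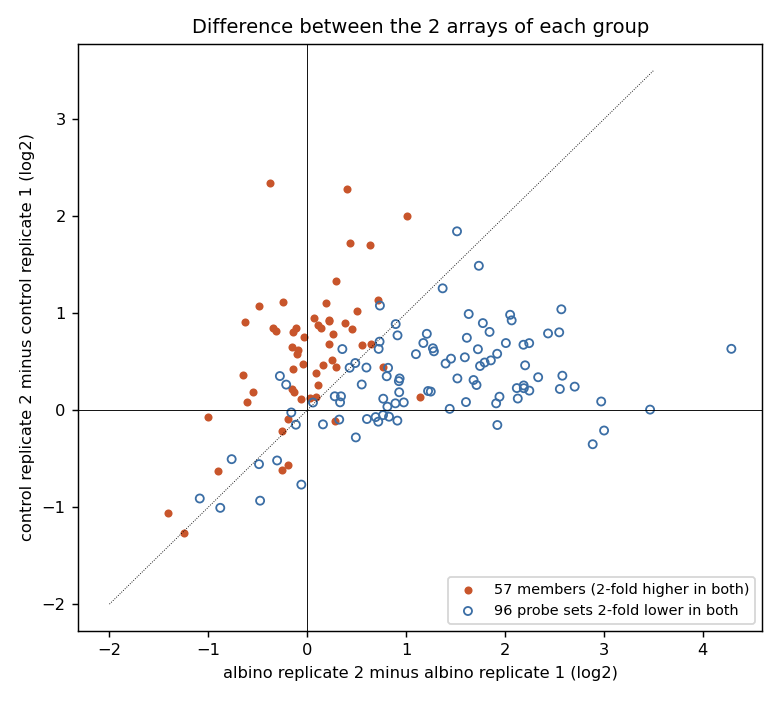
Each point is 1 gene or probe set: replicate 2 minus replicate 1 of the albino arrays (horizontal axis) against the same of the control arrays (vertical axis), in log2 units, with a dotted line where both are equal. Most of the 57 genes (orange) lie above the horizontal line at 0, as in 48 of them control replicate 2 was the brighter, while most of the 96 lower probe sets (blue circles) lie to the right of the vertical line.

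The genes were found on all 5 nuclear chromosomes. Chromosomes 1 to 5 held 17, 5, 14, 7 and 14 of them, that is 29.8%, 8.77%, 24.6%, 12.3% and 24.6% of the set. The shares of all nuclear single-gene probe sets were 25.9%, 16.5%, 20.5%, 14.6% and 22.5%. Along the gene order, neighbouring members of the set lay a median of 263 genes apart. Only AT3G28220, AT3G28270 and AT3G28320 lay within 10 genes of another, 5 and 6 steps from each other on chromosome 3. The stretch from the first to the last of them holds 12 protein-coding genes, of which 6 were measured. The 3 measured genes between them differed by less: AT3G28230 by 0.31, AT3G28280 by -0.01 and AT3G28310 by 0.53 in the mean. Their mean control signals were dim, at 2.95 to 4.02. AT3G28230 (0.13 and 0.49) and AT3G28310 (0.55 and 0.51) were higher in both replicates, and AT3G28280 was mixed (-0.15 and 0.13). The 3 neighbours did not share a pattern between replicates, since AT3G28220 and AT3G28270 had the larger difference in replicate 1 and AT3G28320 in replicate 2.

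**Figure D5:**
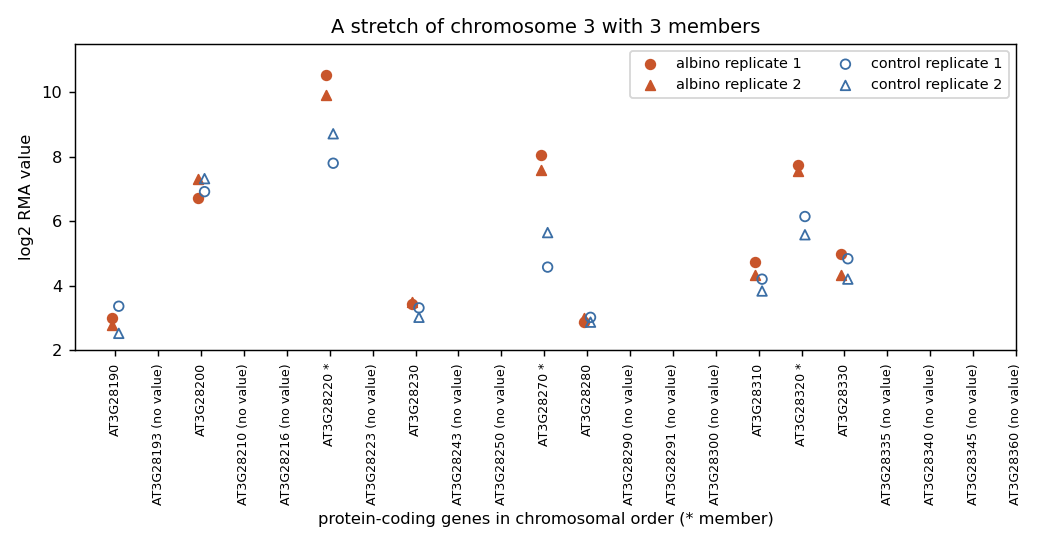
Log2 signals (vertical axis) of protein-coding genes in chromosomal order around AT3G28220, AT3G28270 and AT3G28320 (horizontal axis, these 3 starred); filled symbols are albino and open symbols control arrays, and genes with no value had no single-gene probe set. The albino and control symbols are further apart in the starred genes than in AT3G28230, AT3G28280 and AT3G28310, which were dim. In AT3G28230 and AT3G28310 both albino symbols also lie above both control symbols.

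Of 20 lists of hormone, stress, nutrient, light and growth genes with 251 genes, 32 genes in 12 lists were measured. IAA29 was the only one among the 57 genes, and 5 were genes that met the rule and were left out by name. The other 26 had a median difference of -0.04 and ran between -1.96 and 1.17: 8 were higher and 11 lower in both replicates and 7 were mixed, against 34.6% higher and 28.5% lower in both over all probe sets. None of the 26 was 2-fold higher in both replicates, and 0 of the 32 passed the adjusted p of 0.05. The type-A response regulator ARR15, a gene of cytokinin response, came closest at 1.52 and 0.82. The gibberellin receptors GID1A and GID1B, in whose pathway growth genes are controlled, differed by 0.02 and -0.87 in the mean. For the other lists without a gene that met the rule, the measured gene with the smallest unadjusted p is given with its mean difference. These were SWEET15, a sugar exporter, at -1.96, and CCS, the copper chaperone of superoxide dismutase, at -1.05. BCAT4 of glucosinolate synthesis was at -0.77, COR15B of the cold response at 0.47 and UGT75C1 of anthocyanin synthesis at 0.21. UGT75C1 was dim and mixed, at 0.58 and -0.15 in replicates 1 and 2.

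Of the fits without 1 array, only the one without albino replicate 2 gave calls. In limma without albino replicate 2, 30 probe sets (0.132%) had a higher and 152 a lower signal in albino plants at an adjusted p of 0.05, and 6 of the 57 genes were among the 30: AT1G62770, AT3G28270, AT1G80130, AT5G50335, AT5G57760 and AT2G47880. With all 4 arrays 0 of the 57 genes were called, and the fit without that array takes the single albino array to vary as the control arrays do. The rule had chosen the 57 genes partly on albino replicate 1 against control replicate 1. It therefore favours calls of these genes in that fit, and such calls support nothing further.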

How the data were processed

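Total RNA of 2 albino and 2 control samples was hybridized to 1 array each. The values are log2 probe-set signals deposited by the authors; they were summarised with RMA, per the submitters' processing notes, by software not given in the sources used here. Groups came from the sample titles. The platform annotation gave 1 gene for 13513 of 22746 probe sets, several for 503 and none for 8730. Of the 13513, 13436 matched a gene record of TAIR10.1. These records gave names, gene type and gene order, and told nuclear from organelle genes.

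The 57 genes and the gene lists were chosen with earlier results of these data known. Differences are albino minus control within a replicate number. SE and p-values are from limma 3.58.1 (R 4.3.3), with a two-sided moderated test and 2 residual degrees of freedom. The Benjamini-Hochberg adjustment was over all probe sets. A trial on simulated data with independent noise and large added effects checked the sign and size of the effects. It could not show how the fit performs on arrays that deviate together by replicate number. All 4 values were to be given for the 40 genes with the largest smaller difference and for any gene of a list or family, the nearest 5 inside and 5 outside the threshold by their differences, and of each list its members among the 57 and the gene with the smallest p. Alternatives were other scalings, filters on dim or cross-hybridizing probe sets, other thresholds, the replicate number as a block and leaving out arrays. With 2 arrays a group, precision is limited. A planned motif comparison was not run, since no promoter sequences were used here.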

Additional observations from a re-analysis of the deposited data

Results flagged for a closer look

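Probe sets without a single annotated gene could not enter the set of 57 genes, but some met its threshold. Of the 185 probe sets (0.813% of all) that were at least 2-fold higher in albino than in control plants within both replicates, 110 have no gene given in the annotation used here. They make up 1.26% of the 8730 such probe sets, and their differences, which the same threshold chose, had a median of 1.86 in replicate 1 and 1.36 in replicate 2. A further 4 are paired with several genes. They are counted in the shares over all probe sets given above but are described nowhere else.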

How the results depend on the processing

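The count of 57 genes was 56 after quantile normalization of all 4 arrays (52 of them shared), 56 after cyclic loess, 57 after centring, 57 without the dimmest 25% and 40 without the dimmest 50% of probe sets, and 56 without probe sets that may cross-hybridize. Other thresholds change it by construction: it was 123 with both differences at least 0.8, 19 with both at least 1.5, and 126 with a mean difference of at least 1. Using a single replicate gave 81 without replicate 1 and 363 without replicate 2. The median difference ran between 1.36 and 1.94 over the fits without 1 array. In those fits 0 members of the set changed sign, 10 were below 1 and the lowest was 0.45. Over scalings and filters the lowest was 1.03. The rule required both differences to be at least 1, so it favours an unchanged sign, which supports nothing further. Calls over all probe sets ran from 0 to 30 higher and from 0 to 152 lower in limma without 1 array, the highest without albino replicate 2. Without variance moderation 1 probe set was lower; the cause was not tested. With the replicate number as a block, 0 probe sets were called in each direction (smallest adjusted p 0.217; unadjusted p under 0.05 in 1631 higher and 1712 lower). The 2 arrays of a number deviated together (r = 0.662), but the labels do not make the numbers a pairing. No level of detection is given in the deposited values, so differences of dim probe sets are the least certain.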
